A study of Homo sapiens with 16 samples.

Results

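The genes described here are those of glycolysis and of the transcriptional response to hypoxia in LX-2 cells, an immortalised human cell line derived from stellate cells of the liver. They were 37 genes of the 61806 in the deposited table, taken by gene symbol. They comprise 17 glycolytic enzymes, 4 glucose and lactate transporters, 4 kinases that set glycolytic flux, 10 targets of the hypoxia-inducible factors (HIF) and the 2 HIF subunits HIF1A and EPAS1. Poly(A) RNA had been sequenced from 16 libraries, 4 in each of 4 groups. Wild-type LX-2 cells had received PBS (WT) or 100 ng/mL TWEAK for 2 h after 24 h of culture. The remaining groups were LX-2 lines made by CRISPR/Cas9 and given PBS, one lacking Fn14alpha and the other total Fn14. Fn14, encoded by TNFRSF12A, is the receptor of the cytokine TWEAK, and the series concerns isoforms of it that arise by alternative splicing, which counts per gene do not separate. Whether the cells of each knockout line were cloned or pooled was not given in the sources used here. Submitters describe the libraries as biological replicates, numbered 1 to 4, without a statement of how they were separated, so the p-values below measure the spread between these samples, which may be technical.

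Glycolysis turns glucose into pyruvate in a chain of enzymes from hexokinase to pyruvate kinase, and lactate dehydrogenase converts pyruvate to lactate. Several steps have paralogous enzymes that differ in kinetics and regulation. Under low oxygen, HIF1A or EPAS1 protein escapes degradation, pairs with ARNT and binds a short element with the core ACGTG or GCGTG beside target genes, among them glucose transporters, most glycolytic enzymes and PDK1. The level of HIF protein is set mainly after translation, by prolyl hydroxylases of the EGLN family and the VHL ubiquitin ligase, so messenger RNA levels of HIF1A and EPAS1 are no direct measure of HIF activity. Activated stellate cells, the fibre-forming cells of the injured liver, are known to rely on glycolysis.

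Library totals ran from 13335919 to 16888606 counts. Levels below are FPKM (a count divided by the exonic length of the gene and by the library total) scaled by the TMM factor of each library, and a gene passed the test when edgeR's quasi-likelihood test gave a Benjamini-Hochberg adjusted p under 0.05 over the 16029 genes tested. TNFRSF12A, the targeted gene, stood at 117 to 129 FPKM in the WT libraries, 126 to 142 FPKM after TWEAK, 49.2 to 62.2 FPKM in the Fn14alpha knockout and 31.0 to 37.5 FPKM in the Fn14 knockout, so every knockout library lay below every wild-type library. Of 14 stellate markers, 8 or 9 in each group were above 1 FPKM, led by VIM, whereas LRAT was at 0 in every group but the Fn14 knockout. Their summed level moved with the groups, at 737 to 786 FPKM in WT, 965 to 1049 FPKM after TWEAK, 583 to 604 FPKM in the Fn14alpha knockout and 1199 to 1302 FPKM in the Fn14 knockout, and its part in the results below was not tested. Single markers moved both ways, and VIM alone was 369 FPKM in WT and 621 FPKM after TWEAK. Of 11 tested markers, 1 was higher and 1 lower after TWEAK (18.2%, beside 6.87% of all genes tested). In the Fn14alpha knockout 1 was higher and 7 lower (72.7% beside 42.2%), and in the Fn14 knockout 6 were higher and 4 lower (90.9% beside 52.9%). The summed levels of the marker lists of other liver cells were lower: up to 3.17 FPKM for hepatocytes, 1.73 FPKM for endothelium, 13.4 FPKM for cholangiocytes and 2.23 FPKM for leukocytes. In several members WT replicate 4 and replicate 1 of the Fn14 knockout stood away from the rest of their groups, and calls that changed when they were left out are given with the results. In bulk RNA, fewer cells of a type and less RNA per cell cannot be told apart. The comparisons of TWEAK and of either knockout with WT share the WT libraries.

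GAPDH, the dehydrogenase of glyceraldehyde 3-phosphate, was the most abundant member in WT cells, at 1446 ± 87.03 FPKM (mean ± SD of 4 libraries). It was followed by the isomerase TPI1 at 413 ± 33.2 FPKM, the pyruvate kinase PKM at 298 ± 12.6 FPKM and the enolase ENO1 at 295 ± 8.08 FPKM. The spreads of PKM and ENO1 overlapped. This order depends on the deposited exonic sizes, which are 2700 bases for TPI1 and 8572 for PKM. Before division by size, PKM held 164836 counts over the WT libraries and TPI1 72102. HIF1A, at 153 ± 6.71 FPKM, came next, above LDHA at 120.3 ± 3.04 FPKM and PGK1 at 95.2 ± 4.796 FPKM. The HIF targets CA9, a carbonic anhydrase, and EGLN3, a prolyl hydroxylase, had 0 to 3 and 0 to 7 counts in any library. These were the 2 members that the low-count filter removed, which left 35 members tested.

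The 17 enzymes together took 1.16% ± 0.013 (SD) of all counts in WT, 1.15% ± 0.020 in TWEAK-treated, 0.987% ± 0.050 in Fn14alpha knockout and 0.949% ± 0.068 in Fn14 knockout libraries. Every library of either knockout lay below every WT library on this share, which sums enzymes that moved in different directions and was not tested. It is taken from unscaled totals. GAPDH alone held 0.321% to 0.372% in WT, 0.255% to 0.293% in Fn14alpha knockout and 0.209% to 0.250% in Fn14 knockout libraries. In the Fn14alpha and Fn14 knockouts, median log2 fold changes were -0.52 and -0.46 for the 5 enzymes on chromosome 12. For the 12 on other chromosomes they were 0.04 and -0.02.

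TWEAK for 2 h moved 1 of the 35 tested members past the threshold. Over all genes tested, 6.87% passed in this comparison, 4.82% higher and 2.05% lower. The gene was PFKFB3, the bifunctional enzyme that makes fructose 2,6-bisphosphate, the allosteric activator of phosphofructokinase. PFKFB3 stood at 3.82, 4.54, 4.17 and 3.67 FPKM in WT replicates 1 to 4 and at 5.36, 4.75, 5.35 and 5.33 FPKM after TWEAK. Each treated library was above each WT library, and TWEAK replicate 2 was the lowest of its group. The log2 fold change was 0.36 ± 0.083 (SE; edgeR adjusted p = 0.00729). PFKFB3 supplied 56.8% ± 1.72 (SD) of the summed FPKM of the family PFKFB1 to PFKFB4 in WT and 68.3% ± 3.62 after TWEAK.

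The paralog PFKFB4, whose kinase and phosphatase activities are more balanced, was at 2.100, 2.201, 2.53 and 1.97 FPKM in WT and at 1.36, 1.85, 1.63 and 2.04 FPKM after TWEAK. The groups overlapped, and the log2 fold change of -0.36 ± 0.12 (SE; edgeR adjusted p = 0.0635) missed the threshold. Without WT replicate 4 it was -0.41 (edgeR adjusted p = 0.0449), and the lactate transporter SLC16A1, at 0.14 with all libraries, also passed at 0.21 (edgeR adjusted p = 0.0446), which made 3 members. Without TWEAK replicate 4, PFKFB4 also passed, at -0.45 (edgeR adjusted p = 0.0266), which made 2 members. Without both WT replicate 4 and Fn14 knockout replicate 1, EPAS1 passed as well at -0.20 (edgeR adjusted p = 0.0140), which made 4.

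None of the 17 enzymes passed after TWEAK, with log2 fold changes from -0.17 in LDHB to 0.10 in HK2. None of the 8 tested HIF targets passed, from -0.26 in ADM to 0.14 in P4HA2. The median over the 35 members was 0.00 against -0.01 over all genes tested. Genes with a similar role outside the 37 did pass after TWEAK. Among 37 tested further HIF targets, 3 rose and 4 fell, 18.9% beside 6.87% of all genes tested. This list was chosen with earlier results of these data known, so its shares are a description only. INHBA, a subunit of activins, rose by 0.93 ± 0.077 (SE; edgeR adjusted p = 5.07e-09) on the log2 scale, and BHLHE40, a transcriptional repressor of the circadian clock, by 0.87 ± 0.072 (SE; edgeR adjusted p = 5.3e-09). STC2, a secreted glycoprotein, had a log2 fold change of -0.72 ± 0.072 (SE; edgeR adjusted p = 1.27e-07). EGLN1, the main oxygen-sensing prolyl hydroxylase, rose from 1.94 ± 0.134 FPKM to 2.93 ± 0.264 FPKM, a log2 fold change of 0.59 ± 0.11 (SE; edgeR adjusted p = 0.000887).

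**Figure D1:**
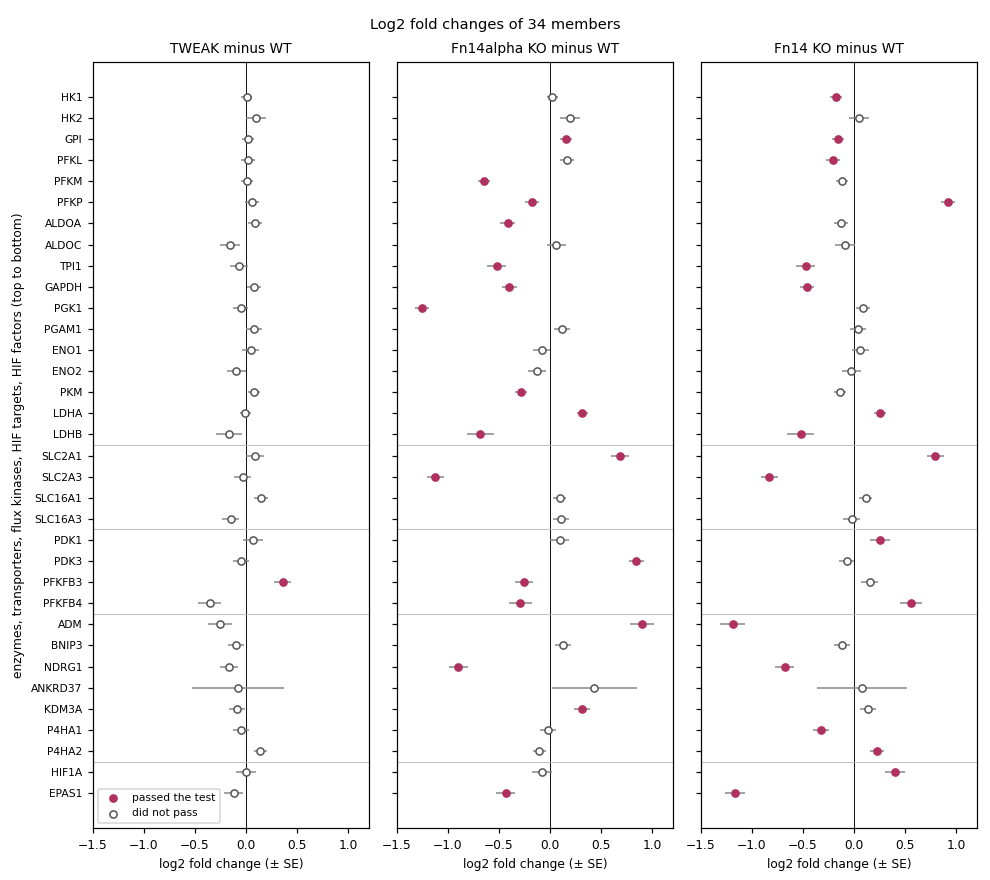
Log2 fold change (x axis) of 34 members (y axis) in 3 comparisons with WT, those of TWEAK and of each knockout (KO). Points are edgeR estimates, bars are ± SE, filled points passed at an adjusted p under 0.05, and grey lines divide enzymes, transporters, flux kinases, HIF targets and HIF factors from top to bottom. CA12, whose changes run off this scale, and the untested CA9 and EGLN3 are not drawn. After TWEAK only PFKFB3 is filled, while 19 of these members are filled in the Fn14alpha panel and 18 in the Fn14 panel.

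In the Fn14alpha knockout 20 of 35 tested members differed from WT, 6 higher and 14 lower, beside 42.2% of all genes tested, 20.0% higher and 22.2% lower. The members' share was 57.1%. In the Fn14 knockout 19 differed, 8 higher and 11 lower, beside 52.9% of all genes, 26.6% higher and 26.3% lower, and the members' share of 54.3% was near that background. Between the knockouts 20 members differed, 11 higher and 9 lower in the Fn14 knockout, beside 59.2% of all genes, 30.7% higher and 28.5% lower. Median log2 fold changes of the members were -0.08, -0.03 and 0.05 in these 3 comparisons, against 0.01, -0.01 and 0.00 over all genes tested. The split of calls moved with the scaling. Under total counts in place of TMM factors the members split 7 higher and 12 lower in the Fn14alpha knockout. They split 6 higher and 16 lower in the Fn14 knockout, and 8 higher and 15 lower between the knockouts. Over all genes, total counts moved the share of calls that were higher from 70.2% to 43.9% after TWEAK and from 47.4% to 53.0% in the Fn14alpha knockout. That share moved from 50.2% to 36.0% in the Fn14 knockout and from 51.9% to 37.3% between the knockouts. In the same order, the median of all genes shifted to -0.07, 0.04, -0.12 and -0.15.

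Of the 17 enzymes, 2 were higher and 8 lower in the Fn14alpha knockout, and 2 were higher and 6 lower in the Fn14 knockout. The remaining enzymes lay between -0.13 and 0.20 in the former and between -0.14 and 0.09 in the latter on the log2 scale. Over all 17 enzymes the medians were -0.13 and -0.12. The shares of the 17 that passed, 58.8% in the Fn14alpha and 47.1% in the Fn14 knockout, stood beside 42.2% and 52.9% of all genes tested. Hexokinase, which traps glucose in the cell, was supplied mainly by HK1, at 86.04% ± 0.427 (SD) of hexokinase FPKM in WT. HK1 had a log2 fold change of -0.18 ± 0.055 (SE; edgeR adjusted p = 0.00877) in Fn14 knockout cells and 0.02, which did not pass, in the Fn14alpha knockout. GPI, which makes fructose 6-phosphate, passed in both lines in opposite directions, at 0.15 ± 0.061 (SE; edgeR adjusted p = 0.0444) in Fn14alpha knockout cells and -0.16 ± 0.061 (SE; edgeR adjusted p = 0.0313) in Fn14 knockout cells. The first was lost without WT replicate 3 or 4 or Fn14alpha knockout replicate 2 or 3, at 0.11 to 0.16, and the second without WT replicate 1, 2 or 3 or Fn14 knockout replicate 4, at -0.13 to -0.16.

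Phosphofructokinase commits glucose to glycolysis and has a liver-type (PFKL), a muscle-type (PFKM) and a platelet-type (PFKP) subunit, whose mix differed between the lines. PFKP stood at 15.9, 16.7, 16.1 and 13.6 FPKM in WT, at 13.9, 14.3, 14.2 and 12.7 FPKM in the Fn14alpha knockout and at 27.4, 30.5, 31.4 and 28.5 FPKM in the Fn14 knockout. All Fn14 knockout libraries were above all others, while the Fn14alpha knockout overlapped WT. Against WT the log2 fold changes were 0.92 ± 0.067 (SE; edgeR adjusted p = 4.33e-11) in Fn14 knockout cells and -0.18 ± 0.067 (SE; edgeR adjusted p = 0.03701) in Fn14alpha knockout cells. The latter was lost when WT replicate 1, 2 or 3 or Fn14alpha knockout replicate 1 or 4 was left out, at -0.14 to -0.18. PFKP made up 37.5% ± 1.32 (SD) of the summed phosphofructokinase FPKM in WT, 37.1% ± 0.711 in Fn14alpha knockout cells and 55.98% ± 2.18 in the Fn14 knockout.

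PFKM was at 11.9, 12.1, 12.2 and 10.9 FPKM in WT and at 7.39, 7.74, 7.92 and 7.04 FPKM in the Fn14alpha knockout. These groups did not overlap, and the log2 fold change was -0.65 ± 0.060 (SE; edgeR adjusted p = 5.98e-09). Fn14 knockout cells had -0.12 ± 0.059, which did not pass with all libraries but passed without WT replicate 4, at -0.15 (edgeR adjusted p = 0.0329). PFKM overlaps the gene SENP1, which holds 83.8% as many counts, and whether the counting used strand was not given in the sources used here. PFKL passed in the Fn14 knockout, with a log2 fold change of -0.21 ± 0.069 (SE; edgeR adjusted p = 0.0142), but not without Fn14 knockout replicate 4, at -0.16 (edgeR adjusted p = 0.0609). It supplied 42.6% ± 0.727 (SD) of phosphofructokinase FPKM in the Fn14alpha knockout against 23.3% ± 2.05 in the Fn14 knockout.

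In the lower chain, PGK1, the first enzyme of glycolysis to make ATP, had the largest change of any enzyme. PGK1 (X chromosome, chrX:77910739-78129295, GRCh38) stood at 97.1, 98.8, 88.1 and 96.7 FPKM in WT, at 37.8, 40.98, 44.4 and 36.4 FPKM in the Fn14alpha knockout and at 114, 94.3, 102 and 94.2 FPKM in the Fn14 knockout. Every Fn14alpha knockout library was below every other library. The log2 fold change was -1.25 ± 0.072 (SE; edgeR adjusted p = 1.59e-12) in Fn14alpha knockout cells and 0.09 ± 0.071, which did not pass, in the Fn14 knockout. The difference between the knockouts was 1.34 ± 0.072 (SE; edgeR adjusted p = 1.3e-13).

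GAPDH was at 1485, 1456, 1520 and 1321 FPKM in WT, at 1037, 1175, 1164 and 1009 FPKM in the Fn14alpha knockout and at 1108, 1088, 1089 and 916 FPKM in the Fn14 knockout. All libraries of both knockouts were below all WT libraries. GAPDH, widely used as a reference gene, had log2 fold changes of -0.40 ± 0.072 (SE; edgeR adjusted p = 8.11e-05) and -0.46 ± 0.072 (SE; edgeR adjusted p = 7.56e-06). TPI1, which feeds GAPDH, was at 397, 388, 407 and 462 FPKM in WT, at 264, 309, 305 and 273 FPKM in the Fn14alpha knockout and at 371, 283, 289.7 and 247 FPKM in the Fn14 knockout. Its knockout libraries too were all below WT, with replicate 1 the highest of the Fn14 knockout. The log2 fold changes of TPI1 were -0.52 ± 0.092 (SE; edgeR adjusted p = 6.16e-05) in Fn14alpha knockout cells and -0.47 ± 0.092 (SE; edgeR adjusted p = 0.000125) in Fn14 knockout cells.

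ALDOA, the main aldolase, was lower in the Fn14alpha knockout at -0.42 ± 0.069 (SE; edgeR adjusted p = 3.02e-05), as was PKM at -0.29 ± 0.059 (SE; edgeR adjusted p = 0.000369). Neither passed in the Fn14 knockout, at -0.13 and -0.14. Under total counts both passed there, at -0.25 and -0.25. ALDOA also passed without WT replicate 4, at -0.18 (edgeR adjusted p = 0.0215), and PKM without WT replicate 2 or Fn14 knockout replicate 1, both at -0.16. ENO1, PGAM1, ENO2, ALDOC and HK2 passed in neither knockout. ENO2, the neuronal enolase, passed in the Fn14alpha knockout without WT replicate 4, at -0.22 (edgeR adjusted p = 0.0397).

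Lactate dehydrogenase is a tetramer of the subunits LDHA, which favours the making of lactate and is a classic HIF target, and LDHB, which favours its use. The subunits moved in opposite directions in both knockouts. The changes of LDHB were lost in both when the median of its neighbouring genes was removed, as given below. LDHA (chr11:18394560-18408425, GRCh38) was at 119, 121, 117 and 124 FPKM in WT, at 145, 153, 157 and 143 FPKM in the Fn14alpha knockout and at 149, 144, 144 and 136 FPKM in the Fn14 knockout. The libraries of both knockouts were all above those of WT. Fold changes on the log2 scale were 0.32 ± 0.056 (SE; edgeR adjusted p = 6.33e-05) and 0.25 ± 0.056 (SE; edgeR adjusted p = 0.000479).

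LDHB (chr12:21635342-21757857, GRCh38) was at 71.8, 77.8, 70.7 and 92.3 FPKM in WT, at 46.1, 49.3, 56.2 and 43.5 FPKM in the Fn14alpha knockout and at 75.6, 49.9, 48.1 and 44.1 FPKM in the Fn14 knockout. WT replicate 4 was the highest of its group, and Fn14 knockout replicate 1 lay within the WT range while the other 3 of its group lay below it. The log2 fold changes were -0.68 ± 0.13 (SE; edgeR adjusted p = 0.000295) and -0.52 ± 0.13 (SE; edgeR adjusted p = 0.00207), the latter -0.72 (edgeR adjusted p = 3.23e-08) without Fn14 knockout replicate 1. LDHA accounted for 60.7% ± 2.36 (SD) of lactate dehydrogenase FPKM in WT, 63.2% ± 1.27 after TWEAK, 75.5% ± 1.32 in Fn14alpha knockout libraries and 72.8% ± 4.31 in the Fn14 knockout. The height of these shares depends on the deposited exonic sizes, 6038 bases for LDHA and 2983 for LDHB. Before division by size, LDHA held 46953 counts and LDHB 15100 over the WT libraries.

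The 250 bases before the start of 4 members are printed here so that the HIF core can be read in genes that moved apart: LDHA and its paralog LDHB, and PGK1 and ADM, which moved in opposite directions in the Fn14alpha knockout. With the median of neighbouring genes removed, LDHB was -0.02 in the Fn14alpha and 0.10 in the Fn14 knockout and passed in neither. In the Fn14alpha knockout PGK1 was then -0.30, against -1.25 before, LDHA 0.36 and ADM 0.86, which all passed. Whether the cores bear on these changes was not tested. The sequences are from RefSeq (GRCh38.p14), 5′ to 3′ on the strand of the gene, and for LDHA the first of its start sites listed is shown. Capitals mark ACGTG or GCGTG on either strand, which reads CACGT or CACGC where the core is on the other strand.
LDHA (chr11:18394313-18394562, plus strand): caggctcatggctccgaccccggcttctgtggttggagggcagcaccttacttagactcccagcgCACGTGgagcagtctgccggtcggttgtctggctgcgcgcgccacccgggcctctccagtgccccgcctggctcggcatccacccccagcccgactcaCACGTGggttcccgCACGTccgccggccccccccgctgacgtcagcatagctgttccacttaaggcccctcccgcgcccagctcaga
LDHB (chr12:21657843-21658092, minus strand): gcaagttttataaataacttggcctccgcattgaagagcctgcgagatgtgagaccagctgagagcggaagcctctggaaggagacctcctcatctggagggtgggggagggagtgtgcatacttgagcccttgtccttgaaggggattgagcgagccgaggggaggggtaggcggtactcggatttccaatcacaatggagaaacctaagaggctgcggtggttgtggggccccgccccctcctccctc
PGK1 (chrX:78103998-78104247, plus strand): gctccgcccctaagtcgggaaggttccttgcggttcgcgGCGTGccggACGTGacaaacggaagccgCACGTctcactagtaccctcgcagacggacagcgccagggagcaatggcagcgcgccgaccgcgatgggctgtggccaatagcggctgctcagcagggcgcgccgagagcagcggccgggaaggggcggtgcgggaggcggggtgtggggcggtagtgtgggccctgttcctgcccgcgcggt
ADM (chr11:10304823-10305072, plus strand): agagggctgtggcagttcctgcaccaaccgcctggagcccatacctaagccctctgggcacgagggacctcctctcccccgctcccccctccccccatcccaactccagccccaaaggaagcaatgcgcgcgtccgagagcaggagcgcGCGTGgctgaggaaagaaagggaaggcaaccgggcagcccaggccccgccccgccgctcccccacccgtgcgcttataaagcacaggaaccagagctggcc
The LDHA window held 3 separate stretches with the core, 2 of them the palindrome CACGTG, the PGK1 window 3, the ADM window 1 and the LDHB window 0. These numbers depend on the window, since the 250 bases before the other start site of LDHA held 1 core, and LDHB held 1 when the 50 bases after its start were added. RefSeq entries matched 34 of the 37 members, with 62 start sites, and 3 members (SLC2A3, SLC16A1 and NDRG1) had none. In the window of 300 bases, from 250 before to 50 after the start, a core was present at 42 of the 62 sites (67.7%), against 48.4% of all 35116 windows in the table. ACGTG alone was present at 23 of the 62 sites (37.1%), against 21.4%. Some starts of 1 gene overlap, so these sites are not independent, and a match to 5 letters is a description, not a binding site.

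Among the transporters, the pair that brings in glucose changed in opposite directions in both knockouts. SLC2A1 (GLUT1), a HIF target and the common glucose carrier of cultured cells, was at 6.397, 6.06, 6.095 and 5.25 FPKM in WT, at 9.42, 10.3, 10.05 and 8.48 FPKM in the Fn14alpha knockout and at 9.19, 10.8, 10.97 and 10.3 FPKM in the Fn14 knockout. All 8 knockout libraries were above all WT libraries. On the log2 scale the fold changes were 0.68 ± 0.084 (SE; edgeR adjusted p = 4.77e-07) and 0.80 ± 0.084 (SE; edgeR adjusted p = 2.33e-08).

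SLC2A3 (GLUT3), a carrier of higher affinity, was at 4.63, 4.81, 4.37 and 4.61 FPKM in WT, at 2.28, 2.25, 2.08 and 1.84 FPKM in the Fn14alpha knockout and at 2.405, 2.804, 2.58 and 2.57 FPKM in the Fn14 knockout. Here all knockout libraries were below all WT libraries. SLC2A3 had log2 fold changes of -1.12 ± 0.086 (SE; edgeR adjusted p = 2.36e-10) and -0.83 ± 0.085 (SE; edgeR adjusted p = 1.43e-08). SLC2A1 thus made up 56.3% ± 2.34 (SD) of the summed FPKM of the pair in WT and 58.3% ± 3.01 after TWEAK, but 81.9% ± 0.988 in Fn14alpha knockout cells and 79.9% ± 0.773 in the Fn14 knockout. The lactate carriers SLC16A1 and SLC16A3 (MCT1 and MCT4) passed in neither knockout, between -0.03 and 0.11 on the log2 scale. Without WT replicate 4, SLC16A1 passed in both, at 0.16 and 0.18. SLC16A3 overlaps CSNK1D, which holds 283% as many counts, so its reads are uncertain.

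**Figure D2:**
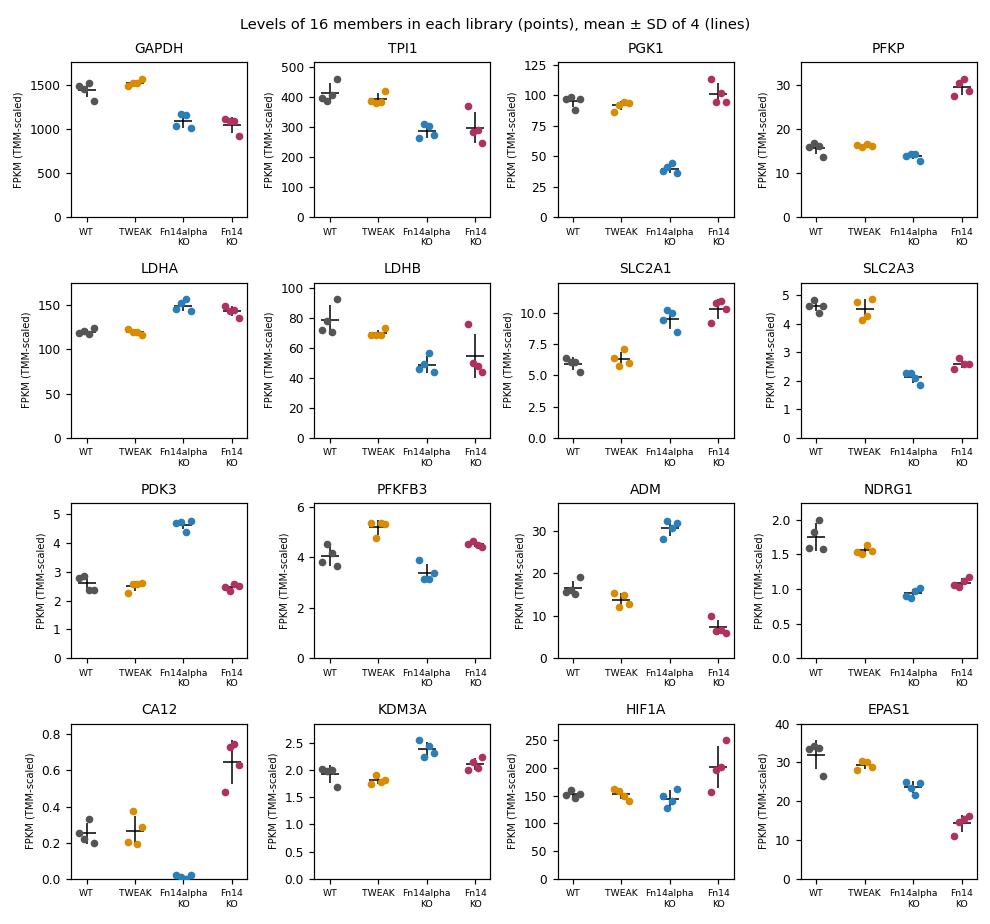
Level in FPKM (y axes, from 0, scaled by TMM factor) of 16 members in each library (points), by group (x axes), with the mean and SD of 4 libraries as a line and bar. SLC2A1 and LDHA sit above WT in both knockouts and SLC2A3 and GAPDH below it, whereas PGK1, PDK3, ADM and CA12 separate one knockout from the other.

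**Figure D3:**
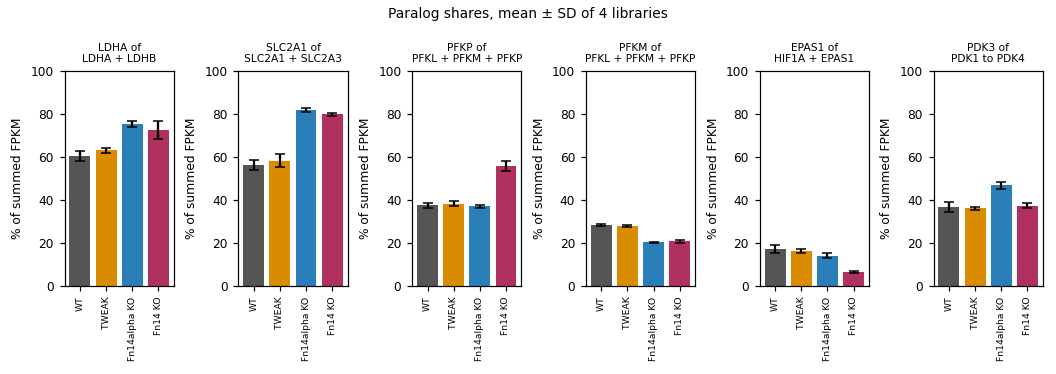
Share of 1 gene in the summed FPKM of its family (y axes, percent) in each group (bars, mean; error bars, SD of 4 libraries). LDHA and SLC2A1 have larger shares in both knockouts than in WT, PFKP in the Fn14 knockout, and PDK3 in the Fn14alpha knockout, while EPAS1 falls to 6.63% of HIF1A plus EPAS1 in the Fn14 knockout.

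The flux kinases act on both ends of the pathway. PDK1 and PDK3 phosphorylate and inhibit pyruvate dehydrogenase, which holds pyruvate back from mitochondria. PDK3, on the X chromosome, was at 2.78, 2.85, 2.38 and 2.36 FPKM in WT, at 4.69, 4.72, 4.39 and 4.76 FPKM in the Fn14alpha knockout and at 2.46, 2.33, 2.58 and 2.51 FPKM in the Fn14 knockout. Only the Fn14alpha knockout stood apart from WT, with all 4 libraries above the rest, at 0.84 ± 0.073 (SE; edgeR adjusted p = 2.01e-09). The difference between the knockouts was -0.91 ± 0.074 (SE; edgeR adjusted p = 1.89e-10). PDK1 passed in the Fn14 knockout, at 0.25 ± 0.096 (SE; edgeR adjusted p = 0.0316), and not in the Fn14alpha knockout, at 0.09. The difference between them, 0.16 ± 0.096, did not pass. The call of PDK1 was lost under 10 of the 17 other settings tried, among them leaving out WT replicate 1 or 2 or Fn14 knockout replicate 3 or 4, at 0.19 to 0.25.

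PFKFB4 was at 1.77, 2.06, 1.74 and 1.61 FPKM in the Fn14alpha knockout and at 3.27, 2.99, 3.42 and 3.28 FPKM in the Fn14 knockout. The latter libraries were all above WT. Its log2 fold changes had opposite signs, -0.29 ± 0.11 (SE; edgeR adjusted p = 0.0416) and 0.56 ± 0.11 (SE; edgeR adjusted p = 0.000132). The call in the Fn14alpha knockout was lost under 11 of 17 other settings, among them DESeq2, total counts and leaving out WT replicate 2 or 3 or Fn14alpha knockout replicate 1, 3 or 4, at -0.22 to -0.29. PFKFB3 was lower in the Fn14alpha knockout, at -0.26 ± 0.085 (SE; edgeR adjusted p = 0.0181), and did not pass in the Fn14 knockout, at 0.15. The former was lost without WT replicate 2 or Fn14alpha knockout replicate 2 or 3, at -0.19 to -0.22.

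The HIF targets did not move as a block. Of 8 tested, 2 were higher and 2 lower in the Fn14alpha knockout, and 2 were higher and 3 lower in the Fn14 knockout, with medians of 0.05 and -0.02. These were 50% and 62.5% of the 8, beside 42.2% and 52.9% of all genes tested. All genes also moved both ways, 20.0% higher and 22.2% lower in the former and 26.6% higher and 26.3% lower in the latter. ADM, the vasoactive peptide adrenomedullin, was at 15.6, 15.98, 15.2 and 19.1 FPKM in WT, at 28.1, 32.4, 30.6 and 31.8 FPKM in the Fn14alpha knockout and at 9.93, 6.36, 6.697 and 5.98 FPKM in the Fn14 knockout. The 3 groups did not overlap, with WT in the middle. The log2 fold changes were 0.90 ± 0.11 (SE; edgeR adjusted p = 1.18e-06) and -1.19 ± 0.12 (SE; edgeR adjusted p = 3.28e-08), and the difference between the knockouts was -2.09 ± 0.12 (SE; edgeR adjusted p = 1.72e-12).

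NDRG1, a stress-induced gene of growth arrest, was at 1.597, 1.82, 1.999 and 1.58 FPKM in WT, at 0.893, 0.874, 0.973 and 1.02 FPKM in the Fn14alpha knockout and at 1.05, 1.03, 1.11 and 1.18 FPKM in the Fn14 knockout. All 8 knockout libraries were below all WT libraries. Log2 fold changes were -0.90 ± 0.092 (SE; edgeR adjusted p = 2.79e-08) and -0.68 ± 0.091 (SE; edgeR adjusted p = 9.25e-07). KDM3A, a histone demethylase, was higher in the Fn14alpha knockout at 0.31 ± 0.077 (SE; edgeR adjusted p = 0.00203) and did not pass in the Fn14 knockout at 0.13. The call of KDM3A was lost with the median of its neighbouring genes removed, at 0.16 (edgeR adjusted p = 0.126).

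CA12, a membrane carbonic anhydrase, had few counts: 23 to 38 in a WT library, 0 to 2 in an Fn14alpha knockout library and 47 to 79 in an Fn14 knockout library. The 3 groups did not overlap. Its log2 fold changes were -4.30 ± 0.46 (SE; edgeR adjusted p = 5.32e-08) and 1.35 ± 0.23 (SE; edgeR adjusted p = 2.47e-05). The first depends on how counts of 0 to 2 are moderated and was -0.31 (limma adjusted p = 0.000236) on the log2(FPKM + 1) scale. The subunits of collagen prolyl 4-hydroxylase, which stabilises the collagen that stellate cells lay down, split. P4HA1 was lower in the Fn14 knockout at -0.32 ± 0.079 (SE; edgeR adjusted p = 0.00138) and P4HA2 higher at 0.23 ± 0.066 (SE; edgeR adjusted p = 0.00587). Neither passed in the Fn14alpha knockout, at -0.02 and -0.11. P4HA2 did not pass under total counts, at 0.11. The mitophagy receptor BNIP3 passed in neither comparison with WT, at 0.13 and -0.12, and passed in the Fn14alpha knockout without WT replicate 4, at 0.22 (edgeR adjusted p = 0.0122). ANKRD37, with 3 to 19 counts per library, passed in none and overlaps the far more abundant UFSP2.

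The HIF alpha subunits themselves diverged in the Fn14 knockout. HIF1A was at 151, 161, 145 and 154 FPKM in WT, at 149, 127, 139.9 and 163 FPKM in the Fn14alpha knockout and at 157, 196, 203 and 250.2 FPKM in the Fn14 knockout. Fn14 knockout replicate 1 lay within the WT range and the other 3 above it. The log2 fold change in the Fn14 knockout was 0.40 ± 0.099 (SE; edgeR adjusted p = 0.00154), and 0.50 (edgeR adjusted p = 4.89e-06) without that library. With limma on log2(FPKM + 1), which is scaled by library totals, HIF1A did not pass, at 0.26 (limma adjusted p = 0.0524). Without Fn14 knockout replicate 4 it was 0.28 (edgeR adjusted p = 0.00806). In the Fn14alpha knockout it was -0.08 ± 0.099 and did not pass.

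EPAS1 (HIF2A), on chromosome 2, was at 33.4, 34.4, 33.8 and 26.4 FPKM in WT, at 24.9, 23.4, 21.6 and 24.6 FPKM in the Fn14alpha knockout and at 11.01, 14.5, 15.3 and 16.2 FPKM in the Fn14 knockout. The 3 groups did not overlap, and WT replicate 4 was the lowest of its group. EPAS1 had log2 fold changes of -0.44 ± 0.094 (SE; edgeR adjusted p = 0.000619) and -1.17 ± 0.096 (SE; edgeR adjusted p = 4.71e-10). EPAS1 was 17.3% ± 1.84 (SD) of the summed FPKM of both subunits in WT, 14.1% ± 1.08 in Fn14alpha knockout cells and 6.63% ± 0.428 in the Fn14 knockout.

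Set directly against each other, the knockouts differed in 20 members. Among the enzymes, the Fn14 knockout was higher than the Fn14alpha knockout in PGK1, PFKP, PFKM, ALDOA and PKM and lower in PFKL, GPI and HK1. PFKM differed by 0.53 ± 0.060 (SE; edgeR adjusted p = 6.25e-08), PFKL by -0.37 ± 0.069 (SE; edgeR adjusted p = 6.72e-05) and ALDOA by 0.29 ± 0.069 (SE; edgeR adjusted p = 0.00107) on the log2 scale. The difference of PKM, 0.15 ± 0.059 (SE; edgeR adjusted p = 0.0316), was -0.00067 under total counts. It was lost without Fn14 knockout replicate 1 or 2 or Fn14alpha knockout replicate 1, 2 or 3, at 0.13 to 0.15. ALDOA also failed to pass under total counts, at 0.14.

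Of the transporters, SLC2A3 differed by 0.29 ± 0.090 (SE; edgeR adjusted p = 0.00738), and by 0.14 without passing under total counts. The kinases PFKFB4 and PFKFB3 were higher in the Fn14 knockout, by 0.85 ± 0.11 (SE; edgeR adjusted p = 5.5e-07) and 0.41 ± 0.085 (SE; edgeR adjusted p = 0.000225). Of the HIF targets, CA12 differed by 5.65 ± 0.40 (SE; edgeR adjusted p = 1.48e-11), a size that depends on the Fn14alpha knockout counts of 0 to 2 and was 0.67 (limma adjusted p = 2.64e-08) on the log2(FPKM + 1) scale. P4HA2 differed by 0.33 ± 0.066 (SE; edgeR adjusted p = 0.000142) and P4HA1 by -0.30 ± 0.079 (SE; edgeR adjusted p = 0.00238). BNIP3 differed by -0.24 ± 0.079 (SE; edgeR adjusted p = 0.0103), which was lost with the neighbours' median removed, at -0.07 (edgeR adjusted p = 0.478). KDM3A differed by -0.18 ± 0.077 (SE; edgeR adjusted p = 0.0496), which was lost under 12 of 17 other settings, among them without Fn14 knockout replicate 1, at -0.15 (edgeR adjusted p = 0.108). Without the same library, ALDOC passed at -0.23 (edgeR adjusted p = 0.0343) and SLC16A3 at -0.19 (edgeR adjusted p = 0.0475). Without both that library and WT replicate 4, SLC2A1 passed at 0.16 (edgeR adjusted p = 0.0428) and NDRG1 at 0.24 (edgeR adjusted p = 0.0410). The HIF subunits differed in opposite directions, HIF1A by 0.48 ± 0.099 (SE; edgeR adjusted p = 0.000244) and EPAS1 by -0.73 ± 0.095 (SE; edgeR adjusted p = 6.32e-07).

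The members that moved were not spread evenly over the genome. PFKM, TPI1, GAPDH, ENO2, LDHB and SLC2A3 lie on chromosome 12. Of these 6, 5 were lower in the Fn14alpha and 4 in the Fn14 knockout, with none higher in either, and their median log2 fold changes were -0.59 and -0.47. The median log2 fold change of its 629 tested genes with a mean log2 CPM of at least 2 was -0.48 in the Fn14alpha knockout, where 80.1% were lower, and -0.10 in the Fn14 knockout, where 38.5% were lower. Chromosome X, with PGK1 and PDK3, had a median of -0.69 in the Fn14alpha but 0.07 in the Fn14 knockout. The former does not hold for each region of X, since 68.2% of its 390 such genes were lower and 15.1% higher. With the median of its neighbouring genes removed, PDK3 in the Fn14alpha knockout was 0.58, against 0.84 before. With TWEAK the medians of chromosomes 12 and X were 0.00 and -0.02. On the other chromosomes, 6 members were higher and 9 lower of 29 tested in the Fn14alpha knockout, and 8 higher and 7 lower in the Fn14 knockout.

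Each member was therefore set beside the median of its neighbours, the nearest 25 tested genes on each side. In the Fn14alpha knockout LDHB was at -0.68 and its neighbours at -0.66, GAPDH at -0.40 and -0.42, TPI1 at -0.52 and -0.40, and PGK1 at -1.25 and -0.95. In the Fn14 knockout GAPDH was at -0.46 with its neighbours at -0.63, and PFKFB4 at 0.56 with its neighbours at 0.58. Members with a call thus included some whose whole neighbourhood had moved by a similar amount.

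When the neighbours' median was removed and the counts tested again, 12 of the 20 calls in the Fn14alpha knockout kept their direction and passed, 6 (GPI, KDM3A, LDHB, PFKFB3, PFKFB4 and TPI1) did not pass, and 2 (GAPDH and PFKP) changed sign without passing. LDHB became -0.02 (edgeR adjusted p = 0.922) and TPI1 -0.12 (edgeR adjusted p = 0.334), while PGK1 stayed lower at -0.30 (edgeR adjusted p = 0.00211). SLC2A3 was -0.69 (edgeR adjusted p = 1.08e-06) there and -0.26 (edgeR adjusted p = 0.0157) in the Fn14 knockout. PFKM was -0.19 (edgeR adjusted p = 0.0183) in Fn14alpha knockout cells, and its difference between the knockouts was 0.15 (edgeR adjusted p = 0.0399). In the Fn14 knockout 12 of 19 calls kept their direction and passed, 3 (GPI, HK1 and PFKL) did not pass, and 4 (GAPDH, LDHB, PFKFB4 and TPI1) changed sign without passing. Between the knockouts 12 of 20 kept their direction and passed, 7 (ALDOA, BNIP3, GPI, HK1, KDM3A, PFKFB4 and PFKL) did not pass, and PFKFB3 changed sign without passing. With newly passing members counted too, 14, 17 and 19 members passed after the removal in these 3 comparisons, against 20, 19 and 20 before. Over all genes tested, 4963, 6642 and 7613 passed after it, against 6771, 8472 and 9489 before.

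Other members stood far from their neighbours. SLC2A1 with the neighbours removed was 0.57 (edgeR adjusted p = 1.01e-05) in Fn14alpha knockout cells and 0.86 (edgeR adjusted p = 8.61e-09) in the Fn14 knockout. In the same order LDHA was 0.36 (edgeR adjusted p = 2.25e-05) and 0.38 (edgeR adjusted p = 6.25e-06), and ADM was 0.86 (edgeR adjusted p = 3.84e-06) and -1.15 (edgeR adjusted p = 8.3e-08). NDRG1 was -0.97 (edgeR adjusted p = 1.43e-08) and -0.76 (edgeR adjusted p = 2.51e-07), and EPAS1 was -0.52 (edgeR adjusted p = 0.000154) and -0.77 (edgeR adjusted p = 5.17e-07). These 5 genes, on chromosomes 1, 11, 8 and 2, passed in the same direction as before in both knockouts. PFKP in the Fn14 knockout was 0.61 (edgeR adjusted p = 7.37e-08) and PDK3 in the Fn14alpha knockout 0.58 (edgeR adjusted p = 1.12e-06). In the Fn14 knockout 5 uncalled members passed once their neighbours were removed: ENO2 at 0.54 (edgeR adjusted p = 3.63e-05), HK2 at 0.32 (edgeR adjusted p = 0.0108) and SLC16A1 at 0.17 (edgeR adjusted p = 0.0397) were higher, and SLC16A3 at -0.59 (edgeR adjusted p = 2.35e-06) and PDK3 at -0.35 (edgeR adjusted p = 0.000533) lower than their regions. What underlies the regional shifts was not tested.

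**Figure D4:**
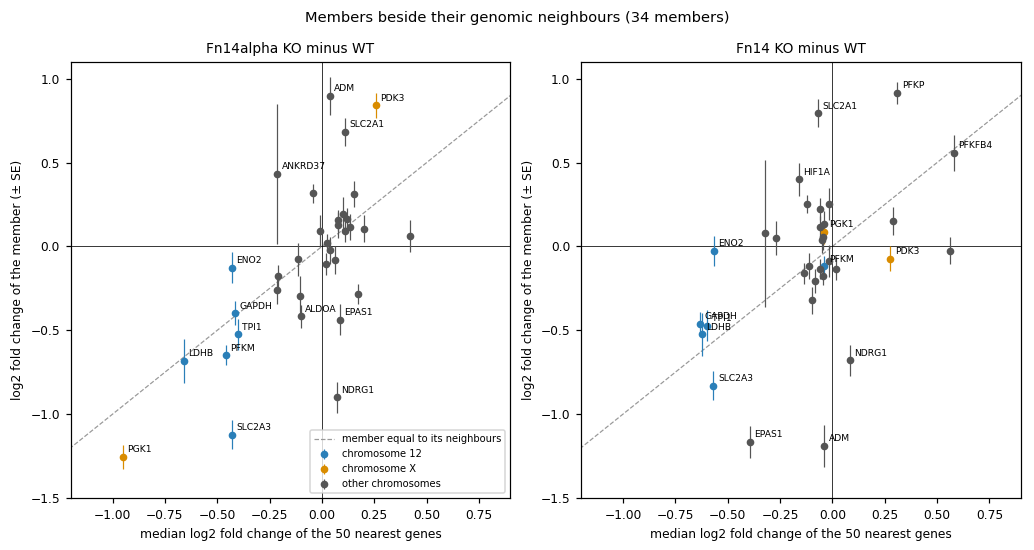
Log2 fold change of each of 34 members (y axis, ± SE) against the median log2 fold change of its 50 nearest tested genes (x axis) in either knockout. The dashed line marks a member equal to its neighbours, blue points lie on chromosome 12 and orange points on chromosome X. LDHB, GAPDH and TPI1 lie near the dashed line in both panels, while SLC2A1, NDRG1, ADM and EPAS1 lie away from it. CA12, whose changes run off this scale, is not drawn.

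The rest of the pathway was read from 6 further lists. Of 9 tested other glycolytic isoforms and side enzymes, 1 was higher and 1 lower in the Fn14alpha knockout, and 2 were higher and 3 lower in the Fn14 knockout. As shares of the list, 22.2% and 55.6% passed in the Fn14alpha and Fn14 knockouts, beside 42.2% and 52.9% of all genes tested. TIGAR, a fructose bisphosphatase on chromosome 12, was lower in both, at -0.48 ± 0.098 (SE; edgeR adjusted p = 0.000317) and -0.54 ± 0.099 (SE; edgeR adjusted p = 6.24e-05), with neighbours at -0.39 and -0.63. Of 8 tested other sugar and lactate transport genes, 1 was higher and 4 lower in the Fn14alpha knockout, and 1 higher and 3 lower in the Fn14 knockout. These were 62.5% and 50% of that list, beside the same 42.2% and 52.9% of all genes. EMB, a chaperone of lactate carriers, was higher in the Fn14 knockout, at 0.90 ± 0.095 (SE; edgeR adjusted p = 2.48e-08), and SLC2A10 was lower, at -0.79 ± 0.11 (SE; edgeR adjusted p = 2.03e-06). The lactate carrier SLC16A7, on chromosome 12, was lower in the Fn14alpha knockout, at -0.76 ± 0.081 (SE; edgeR adjusted p = 5.54e-08), with neighbours at -0.48.

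Of 13 tested genes by which pyruvate enters mitochondria, 3 were higher and 2 lower in the Fn14alpha knockout, and 3 higher and 3 lower in the Fn14 knockout. The shares that passed, 38.5% and 46.2%, stood beside 42.2% and 52.9% of all genes tested. PDHA1, the catalytic subunit of pyruvate dehydrogenase, rose from 46.8 ± 2.87 FPKM to 85.3 ± 2.35 FPKM in the Fn14alpha knockout, a log2 fold change of 0.87 ± 0.070 (SE; edgeR adjusted p = 6.13e-10), with its X-linked neighbours at 0.74. PDP1, the phosphatase that reactivates that enzyme, was 10.9 ± 0.514 FPKM in WT, 7.998 ± 0.229 FPKM after TWEAK, 7.78 ± 0.403 FPKM in Fn14alpha knockout cells and 8.23 ± 0.659 FPKM in the Fn14 knockout. Its log2 fold changes from the same WT libraries were -0.44 ± 0.069 (SE; edgeR adjusted p = 8.49e-05), -0.48 ± 0.069 (SE; edgeR adjusted p = 4.14e-06) and -0.40 ± 0.069 (SE; edgeR adjusted p = 2.68e-05), and it was the only gene of this list to pass after TWEAK.

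Of 8 tested pentose phosphate genes, 1 was higher and 1 lower in the Fn14alpha knockout, and 3 higher and 2 lower in the Fn14 knockout. These were 25% and 62.5% of the list, beside 42.2% and 52.9% of all genes tested. TKT, a transketolase, was higher in the Fn14 knockout at 0.52 ± 0.059 (SE; edgeR adjusted p = 6.94e-08), with neighbours at 0.51.

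Of the 37 tested further HIF targets, 8 were higher and 8 lower in the Fn14alpha knockout, 43.2% beside 42.2% of all genes tested. In the Fn14 knockout 14 were higher and 12 lower, 70.3% beside 52.9% of all genes, and the list's median was 0.13. These shares too are a description, since the list was chosen with earlier results known. AK4, STC2 and LOX had the smallest adjusted p of the list in the Fn14alpha knockout, at 0.75 ± 0.077 (SE; edgeR adjusted p = 3.74e-08), 0.66 ± 0.069 (SE; edgeR adjusted p = 4.22e-08) and 0.76 ± 0.087 (SE; edgeR adjusted p = 1.54e-07). DDIT4, an inhibitor of mTORC1, rose in the Fn14 knockout from 9.44 ± 0.1699 FPKM to 26.1 ± 3.14 FPKM, a log2 fold change of 1.47 ± 0.10 (SE; edgeR adjusted p = 2.22e-11). BHLHE40 was at 1.31 ± 0.072 (SE; edgeR adjusted p = 2.5e-13) with neighbours at 0.86, and the transferrin receptor TFRC at -1.39 ± 0.071 (SE; edgeR adjusted p = 5.08e-14) with neighbours at -0.60. LOX, which cross-links collagen, was lower in the Fn14 knockout, at -0.72 ± 0.090 (SE; edgeR adjusted p = 3.29e-07).

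Of 15 tested regulators of HIF, 3 were higher and 3 lower in the Fn14alpha knockout, and 4 higher and 3 lower in the Fn14 knockout. Their shares of 40% and 46.7% stood beside 42.2% and 52.9% of all genes tested. VHL, which marks HIF for degradation, rose from 6.302 ± 0.213 FPKM to 11.6 ± 0.569 FPKM in the Fn14 knockout, at 0.88 ± 0.070 (SE; edgeR adjusted p = 2.2e-10), with neighbours at 0.80. EGLN1 was 1.06 ± 0.149 FPKM there, at -0.87 ± 0.13 (SE; edgeR adjusted p = 2.61e-06), with neighbours at -0.05. ARNT2, a partner of the HIF alpha subunits, was higher in the Fn14alpha knockout at 0.83 ± 0.077 (SE; edgeR adjusted p = 5.9e-09).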

How the data were processed

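The authors deposited raw read counts per gene and library, with no normalization, and FPKM. Per the file headers and the values, the authors' FPKM equals a count divided by exonic size and library total. HTSeq 0.6.1, HISAT2 2.0.1, cutadapt 1.9.1, FastQC 0.10.1 and DESeq2 are named in the submitters' processing notes, as are the builds GRCh38.p13 and hg38. The roles of these, the annotation release and the strand setting were not given in the sources used here.

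Counts of 16 libraries, grouped by the labels, were tested with edgeR 4.0.16 in R 4.3.3 (quasi-likelihood, robust, TMM, filterByExpr by group, two-sided), with 1 mean per group and Benjamini-Hochberg adjustment over the 16029 genes that passed the filter. The SE is the size of the log2 fold change divided by the square root of F. Levels are deposited FPKM divided by each library's TMM factor. Orders of genes by level and shares within a family therefore depend on the deposited exonic sizes. The code was tested on simulated data. The 24 replicate pairs differed by more than sampling noise (chi-square per degree of freedom of at least 2.30 over genes with at least 100 counts). Replicate numbers were checked for pairing between groups and did not pair the libraries. Alternatives used DESeq2 1.42.0, limma 3.58.1, total counts, no filter, only the groups compared, a replicate block, left-out libraries, an added minimum log2 fold change of 0.5 and the removal of the median of neighbouring genes (up to 25 on each side with a mean log2 CPM of at least 2). Plots used matplotlib 3.10.9 with pandas 2.3.3.

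The members, lists and tests were chosen with earlier results of these data known. All members are accounted for. Named with values are up to 8 passing members of each role with the smallest adjusted p and, of each further list, up to 3 per comparison. Genes of the further lists that are not named enter only the counts, and 1 result is not reported here.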

Additional observations from a re-analysis of the deposited data

Results flagged for a closer look

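CA12, ADM, PFKP, PFKFB4 and GPI had effects of opposite sign in the knockouts, both past the threshold of edgeR's quasi-likelihood test, and the direct test between the knockouts passed as well. In the Fn14alpha knockout the calls of PFKP, PFKFB4 and GPI were lost under 10, 11 and 8 of the 17 other settings. That of GPI in the Fn14 knockout was lost under 7. The Fn14 knockout minus Fn14alpha knockout log2 difference was 5.65 for CA12, -2.09 for ADM, 1.09 for PFKP, 0.85 for PFKFB4 and -0.31 for GPI. That of CA12 depends on how counts of 0 to 2 are moderated and was 0.67 on the log2(FPKM + 1) scale. With the neighbours' median removed the difference was 5.27 (edgeR adjusted p = 1.28e-10), -2.05 (edgeR adjusted p = 3.61e-12), 0.57 (edgeR adjusted p = 1.93e-07), 0.20 (edgeR adjusted p = 0.155) and -0.08 (edgeR adjusted p = 0.294). Under that removal PFKP (0.03 and 0.61) and PFKFB4 (-0.19 and -0.02) each had the same sign in the Fn14alpha and Fn14 knockouts.

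In 12 of 140 groups of 4 libraries (35 tested members in 4 groups), 1 library lay far from the other 3. Its gap to the nearest, as a share of the group's range, exceeded Dixon's critical value for 4 samples, which chance alone gives in about 1 of 20 groups. WT replicate 4 accounted for 7 of the 12. In that library PFKL was 13.6 FPKM, ALDOA 29.1 FPKM, KDM3A 1.68 FPKM and EPAS1 26.4 FPKM, each below the other WT libraries. SLC16A1 was 20.5 FPKM, BNIP3 21.0 FPKM and P4HA1 18.5 FPKM, each above them. TWEAK replicate 4 was highest for TPI1 at 421 FPKM and LDHB at 73.0 FPKM. Fn14 knockout replicate 4 was lowest for GAPDH at 916 FPKM, TWEAK replicate 1 for PDK3 at 2.25 FPKM and TWEAK replicate 2 for PFKFB3 at 4.75 FPKM.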

How the results depend on the processing

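PFKFB3 after TWEAK passed in the same direction under all 17 alternatives run for each member. So did 12 of the 20 members called in the Fn14alpha knockout, 9 of 19 in the Fn14 knockout and 10 of 20 between the knockouts. Adding a minimum log2 fold change of 0.5 left 509, 3326, 4861 and 5747 genes and 0, 10, 9 and 8 members in the 4 comparisons (TWEAK, Fn14alpha knockout, Fn14 knockout, between knockouts), by construction. After TWEAK, 2 members passed with limma on log2(FPKM + 1), with limma on log2(FPKM + 0.1) and with total counts, 4 without the 2 libraries that lay apart, and 1 to 3 when single libraries were left out. Among members that passed before or after the neighbours' median was removed, the sign changed in the Fn14alpha knockout for ALDOC (-0.36), ENO2 (0.30), GAPDH (0.0182) and PFKP (0.0317), in the Fn14 knockout for ENO2 (0.54), GAPDH (0.17), LDHB (0.10), PFKFB4 (-0.0233) and TPI1 (0.12), and between the knockouts for ALDOC (0.31) and PFKFB3 (-0.12). ALDOC and ENO2 had missed the threshold before the removal and passed after it. With total counts PKM between the knockouts became -0.00067. Uncalled members that passed under no setting but changed sign under some numbered 14, 5, 5 and 1. Another 3, 6, 9 and 13 uncalled members passed under some setting and are not in those numbers, whether or not their sign changed. After each gene's group mean was subtracted, same-numbered libraries of different groups correlated between -0.23 and 0.11. The replicate block gave 893, 6454, 8205 and 9241 genes and 1, 19, 19 and 19 members. Members with few counts (CA12, ANKRD37, CA9 and EGLN3) are limited by depth.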

Other observations

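Some members share reads or span with other genes. The table has 65 entries named as pseudogenes of GAPDH, which together held 0.10% to 0.24% of its counts in a library. For BNIP3 the 39 such entries held 1.26% to 3.50%, for PGAM1 the 13 held 1.07% to 2.22%, and for TPI1 the 4 held 1.28% to 1.86%. ALDOC overlaps RSKR, which holds 65.0% as many counts, and ENO2 overlaps LRRC23 with 10.3%. How the deposited counts treat reads that match several genes was not given in the sources used here.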
